A study of Homo sapiens with 688 samples.

Results

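The MEK inhibitors profiled in U87 cells were 5 compounds: trametinib, cobimetinib, pimasertib, refametinib and TAK-733. They were found by searching the drug labels of the 4 U87 plates for 14 names of MEK inhibitors, and they took up 10 of the U87 wells and 5 of the 184 compounds on those plates, in a series of 688 samples. U87 is an established human glioblastoma line, and the study profiled it by PLATE-Seq, a method that tags the polyadenylated RNA of each well with a barcode at the 3′ end and sequences all wells of a plate as 1 pool. Trametinib was given at 0.036 µM and cobimetinib at 0.5 µM on the plate pair PS1, and pimasertib at 0.911 µM, refametinib at 2.289 µM and TAK-733 at 0.268 µM on the plate pair PS4. Each compound had 1 well on plate A and 1 on plate B of its pair, at the same well number, and cells were treated for 24 h. The labels set each dose as the one that left 80% of cells viable at 48 h, a rule that the study's methods give for another cell line. For the U87 screen the methods instead describe doses set by a fixed degree of growth inhibition. The 8 DMSO wells, 2 on each plate, were the vehicle control. A further 8 untreated wells and the 358 wells of the other compounds were used as background. No pair of MEK inhibitors shared a dose, so the values of the compounds are set side by side and no test was made between them. The compound, its dose and its plate pair cannot be told apart. The labels do not say that the A and B wells came from separate cultures, so the p-values measure only the spread between these wells, which may be technical.

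MEK is the dual-specificity kinase that phosphorylates and activates ERK, below RAS and RAF in the pathway that carries growth signals from receptor tyrosine kinases. Active ERK drives transcription of immediate early genes and cyclin D, of ETS factors of the PEA3 family, which are effectors of the pathway, and of its own brakes, among them the ERK phosphatase DUSP6 and the Sprouty and Spred proteins. These genes are widely used as readouts of pathway output, and DUSP6, SPRY4 and ETV5 served here as the markers that checked the labels. The compounds bind MEK at a pocket beside its ATP site, and trametinib and cobimetinib are given together with RAF inhibitors in melanoma.

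The proximal promoters of DUSP6 and SPRY4 are shown because these genes carry the check of the labels, and that of PHLDA1 because it was lowered by each of the 5 compounds. Each is the 250 bases before the start of the gene in RefSeq (build GRCh38.p14, minus strand): chr12:89352502-89352751 for DUSP6, chr5:142324248-142324497 for SPRY4 and chr12:76031777-76032026 for PHLDA1. Capitals mark CCGGAA or CGGAAG on either strand, hexamers with the GGAA core that ETS factors bind. The hexamers overlap where both occur as CCGGAAG.
DUSP6: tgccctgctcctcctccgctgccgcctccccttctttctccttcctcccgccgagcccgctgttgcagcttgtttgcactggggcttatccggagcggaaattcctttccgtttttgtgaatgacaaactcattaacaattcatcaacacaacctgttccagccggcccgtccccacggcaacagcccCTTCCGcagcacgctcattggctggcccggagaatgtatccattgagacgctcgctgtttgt
SPRY4: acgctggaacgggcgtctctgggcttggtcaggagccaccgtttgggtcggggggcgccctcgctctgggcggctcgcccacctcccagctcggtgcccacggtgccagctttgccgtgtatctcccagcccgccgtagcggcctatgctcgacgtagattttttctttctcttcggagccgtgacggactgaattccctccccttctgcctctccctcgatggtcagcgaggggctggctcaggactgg
PHLDA1: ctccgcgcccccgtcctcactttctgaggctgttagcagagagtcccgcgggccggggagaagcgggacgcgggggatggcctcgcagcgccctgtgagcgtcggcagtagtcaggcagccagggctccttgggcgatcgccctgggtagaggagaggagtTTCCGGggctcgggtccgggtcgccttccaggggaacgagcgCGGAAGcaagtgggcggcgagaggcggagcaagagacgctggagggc
DUSP6 held 1 match, which began 62 bases before the start (position -62), and PHLDA1 held 2, at positions -89 and -47, whereas the SPRY4 window had none of these letters. Of 35116 RefSeq promoters of this length, 14.5% held CCGGAA, 16.5% held CGGAAG and 21.6% held either, so a match is a description and not a binding site. The marker ETV5 is named only.

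Total counts per MEK inhibitor well ranged from 356330 to 1058545 with a median of 789229, against 445250 to 799631 in the DMSO wells and 17063 to 1537549 in the wells of other compounds. The shallowest of the 10 was pimasertib on plate PS4 B. VIM, CD44 and FN1 were counted in all 8 DMSO wells, with means of 2415, 846 and 124.4 CPM (the gene's counts scaled to the same library total in every well). The glial markers GFAP, OLIG2 and S100B were near absent there, with means of 0, 0.18 and 0.47 CPM, as were the epithelial and prostate genes CDH1 and KLK3, listed at 0. These are bulk samples, so fewer cells of a kind and less RNA per cell cannot be told apart.

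Averaged over the 5 compounds, 1966 of 9154 tested genes differed from DMSO at an adjusted p under 0.05 (21.5%; edgeR quasi-likelihood test with the plate as a block and Benjamini-Hochberg adjustment), and 891 of them rose (9.73%) and 1075 fell (11.7%). A limma-voom fit over all U87 wells called 2383, of which 1230 rose and 1153 fell. The median log2 fold change over all tested genes was -0.03. For scale, the untreated wells differed from DMSO in 296 genes (3.23%). By compound, refametinib changed 1389 genes (15.2%), pimasertib 1072 (11.7%), TAK-733 906 (9.9%), trametinib 615 (6.72%) and cobimetinib 306 (3.34%). Without the plate block the average over the 5 called 955 genes.

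DUSP6, which encodes the cytoplasmic phosphatase of ERK (GRCh37 chr12:89741012-89746278, minus strand), fell under each of the 5 compounds. Trametinib wells held 22.5 CPM on plate A and 18.9 on plate B, against DMSO wells at 114.5 and 154.7 CPM on plate A and 304 and 306 on plate B. Cobimetinib wells of the same plates held 9.48 and 44.4 CPM. On PS4, where DMSO wells held 248 and 275 CPM on plate A and 160.6 and 130 on plate B, pimasertib wells held 30.5 and 5.61 CPM, refametinib wells 4.31 and 6.38, and TAK-733 wells 23 and 27.5. All 10 wells therefore lay below all 8 DMSO wells, and the highest of them, cobimetinib on plate B, was under the lowest DMSO well. The average log2 fold change was -3.56 (SE 0.19, edgeR adjusted p = 5.06e-19). Side by side, it was -5.03 for refametinib, -3.37 for pimasertib, -3.37 for trametinib, -3.08 for cobimetinib and -2.96 for TAK-733, all called. Untreated wells were at 0.47 (SE 0.15) on the log2 scale relative to DMSO, with an adjusted p of 0.070.

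**Figure D1:**
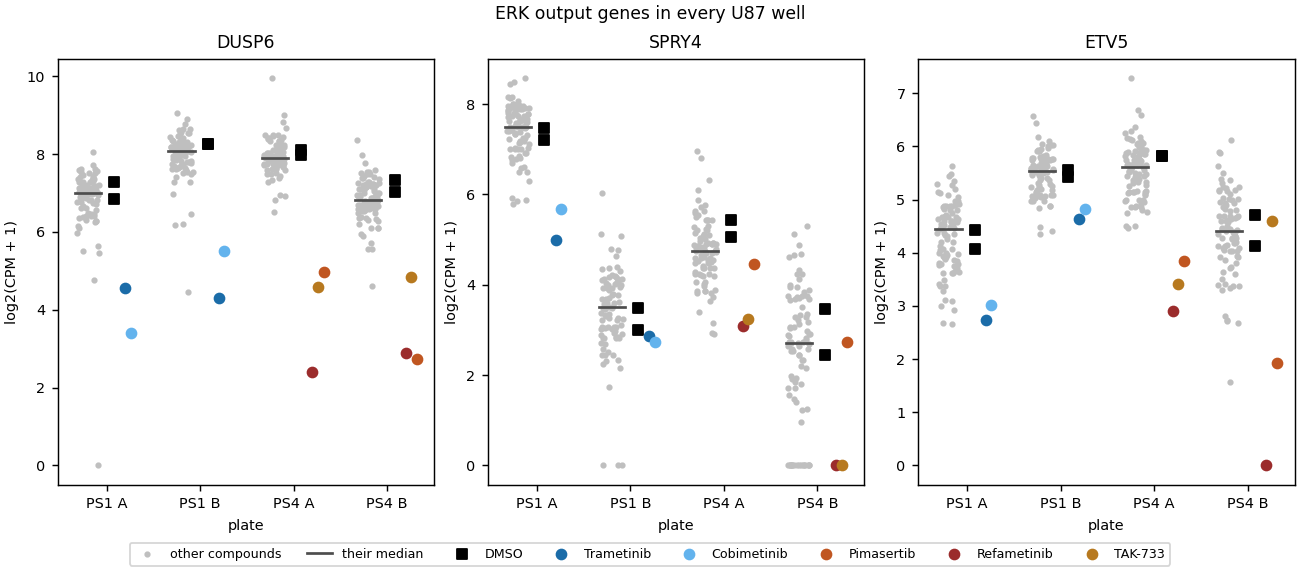
DUSP6, SPRY4 and ETV5 in every compound and DMSO well of the 4 U87 plates, as log2(CPM + 1) by plate, with grey points for other compounds, a bar at their median, black squares for DMSO and coloured points for the MEK inhibitors. All 10 MEK inhibitor wells lie below the DMSO wells for DUSP6, while for SPRY4 and ETV5 the level of the whole plate differs. On PS4 B, pimasertib lies among the DMSO wells for SPRY4 and TAK-733 among those for ETV5.

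SPRY4 (GRCh37 chr5:141689992-141706020, minus strand), a Sprouty protein that restrains signalling from receptors to RAS, was far more abundant on the A plates than on the B plates. Its DMSO wells held 177.4 and 146.4 CPM on PS1 A but 10.2 and 6.96 on PS1 B, and 32.4 and 42.5 on PS4 A but 4.46 and 10 on PS4 B. Against these, trametinib wells held 30.9 and 6.29 CPM, and cobimetinib wells 49.8 and 5.67, on plates A and B. Pimasertib wells held 21 and 5.61 CPM, refametinib wells 7.54 and 0, and TAK-733 wells 8.47 and 0. All 10 wells were below the mean DMSO level of their own plate, although the ranges over all plates overlapped. Within a plate, pimasertib on PS4 B (5.61 CPM) lay above 1 of the DMSO wells (4.46 CPM). The average log2 fold change was -1.73 (SE 0.28, edgeR adjusted p = 2.03e-06). Refametinib (-2.37), TAK-733 (-2.22) and trametinib (-1.96) passed the test, and cobimetinib (-1.40, adjusted p = 0.0503) and pimasertib (-0.70, adjusted p = 0.46) did not. The call was lost when the plate block was left out (adjusted p = 0.27).

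ETV5 (GRCh37 chr3:185764103-185828107, minus strand), an ETS transcription factor of the PEA3 family, had DMSO wells at 15.7 and 20.6 CPM on PS1 A, 45.9 and 41.8 on PS1 B, 55.6 and 55.2 on PS4 A, and 16.4 and 25 on PS4 B. Trametinib wells held 5.61 and 23.9 CPM and cobimetinib wells 7.11 and 27.4. Pimasertib wells held 13.3 and 2.81 CPM, refametinib wells 6.46 and 0, and TAK-733 wells 9.68 and 23.3. In 9 of 10 wells the level was below the DMSO mean of the plate, the exception being TAK-733 on plate B. The average log2 fold change was -1.70 (SE 0.29, adjusted p = 4.53e-06), and refametinib (-3.28) and pimasertib (-2.11) passed the test by themselves. Trametinib (-1.08), cobimetinib (-0.89) and TAK-733 (-1.15) did not.

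The other feedback genes of the pathway and the ETS factors were taken as lists. Over all tested genes 9.73% rose and 11.7% fell, and the counts of this and later lists stand beside these shares. Of 5 tested dual-specificity phosphatases that act on ERK, 2 fell (median log2 fold change over the list -0.51), DUSP6 and its nuclear relative DUSP4. DUSP4 ranged from 0 to 17.9 CPM with a median of 7.34 in the MEK inhibitor wells and from 17.5 to 67.9 with a median of 44.2 in DMSO wells, and the only overlap was cobimetinib on PS1 B above a DMSO well of another plate. Its log2 fold change was -2.43 (SE 0.27, adjusted p = 4.88e-11), and it passed under each compound. DUSP5 (-0.51, adjusted p = 0.11) and DUSP1 (0.40, adjusted p = 0.30) did not pass. Of the 6 Sprouty and Spred genes, 4 fell (median -0.996): SPRY4, SPRED2 (-1.50), SPRED1 (-0.91) and SPRY2 (-1.08). The SPRY2 call was lost with DESeq2 (adjusted p = 0.059), against untreated wells (-0.57, adjusted p = 0.32), and without any 1 of 6 wells, all on the A plates (2 DMSO wells and those of cobimetinib, trametinib, pimasertib and TAK-733), where it lay between -0.76 and -1.01. Of 7 ETS factors, 3 fell (median -0.58): ETV5, its relative ETV1 (-0.68) and ELK1 (-1.51), a ternary complex factor that ERK phosphorylates. Against untreated wells ELK1 was at -1.17 and not called (adjusted p = 0.078).

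Of 19 tested immediate early genes, the rapid transcriptional targets of growth signals, 3 rose and 9 fell (median -0.23). EGR1, a zinc finger factor, had 2.37 to 17.6 CPM with a median of 5.66 under MEK inhibitors and 6.19 to 91.9 with a median of 21.6 in DMSO. These ranges overlapped, and 9 of 10 wells were below their plate's DMSO mean (log2 fold change -2.27, SE 0.35, adjusted p = 4.12e-07). The FOS relatives moved in opposite directions. FOSL1 fell, with all 10 wells below their plate's DMSO mean (-0.87, SE 0.10, adjusted p = 5.12e-10), whereas FOSL2 rose, with all 10 wells above it (1.00, SE 0.14, adjusted p = 1.89e-07), and was at 1.52 against untreated wells. MAFF (-1.37), MYC (-0.996), FOSB (-2.25), the survival gene MCL1 (-1.16), IER2 (-0.95) and IER5 (-1.14) also fell, and KLF6 (0.57) and JUN (0.29) also rose.

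Of 29 further genes of ERK output that were tested, 19 fell and 3 rose, with a median log2 fold change of -1.12. SH2B3, the adaptor that restrains cytokine receptors, ranged from 7.66 to 199 CPM with a median of 33.5 under MEK inhibitors and from 71.4 to 766 with a median of 368 in DMSO. The ranges overlapped because its level differed between plate pairs, yet all 10 wells were below their own plate's DMSO mean. Its log2 fold change was -2.64 (SE 0.13, adjusted p = 5.70e-27). HMGA1, an architectural chromatin protein, held 21.7 to 131.3 CPM with a median of 53 against 181.4 to 419 with a median of 308 in DMSO, with no overlap, and fell by 2.34 on the log2 scale (SE 0.13, adjusted p = 2.42e-24). PHLDA1, whose promoter is printed above, fell by 1.47 (SE 0.12), and the protease inhibitor TFPI2 fell by 1.29 (SE 0.08). The ligand HBEGF (-1.72), the cytokine LIF (-1.36), the urokinase receptor PLAUR (-1.16) and the collagenase MMP1 (-2.03) fell too. The stromelysin MMP3 (1.21), the galectin LGALS3 (0.83) and the calcium-binding protein S100A6 (0.42) were the 3 that rose. CCND1, the cyclin D that carries ERK signals to the cell cycle, fell on average (-0.91, SE 0.10, adjusted p = 1.00e-10), with refametinib at -2.004, TAK-733 at -1.27 and pimasertib at -1.11. Trametinib (-0.19) and cobimetinib (-0.01) did not pass for CCND1.

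Of 28 genes between RAS and the kinases below ERK, 5 rose and 4 fell (median 0.10), where 9.73% of all tested genes rose and 11.7% fell. The RAS relatives RRAS and MRAS rose, with all 10 wells above the DMSO mean of their plate. MRAS held 110.5 to 275 CPM with a median of 153.1 under MEK inhibitors and 44.2 to 80 with a median of 61.6 in DMSO, with no overlap (log2 fold change 1.44, SE 0.14, adjusted p = 1.77e-12). RRAS rose by 1.01 (SE 0.09), the exchange factor SOS1 by 0.99 and PEA15, which anchors ERK in the cytoplasm, by 0.28. The adaptor YWHAB (-0.35), the ERK-activated kinases MKNK2 (-0.42) and RPS6KA2 (-0.73), and HRAS (-0.43) fell. Relative to untreated wells, MKNK2 was at 0.05 and YWHAB at -0.14, neither of them called. Of 9 receptor tyrosine kinases, the ephrin receptor EPHB2 fell (-0.74) and the other 8 did not pass, EGFR among them at 0.15 (SE 0.12). The EPHB2 call was lost against untreated wells (-0.28) and without any 1 of 4 wells on the B plates (a DMSO well of each pair, and those of trametinib and TAK-733), where it lay between -0.46 and -0.70.

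The genes with the largest changes were named by a fixed rule. They had to pass the test, reach 20 CPM in the higher group and lie on the same side of the DMSO mean in all 10 wells, which 330 rises and 490 falls did. FDCSP, a small secreted protein of follicular dendritic cells, rose most. Its DMSO wells held 9.91 to 38.8 CPM with a median of 24.5, and the MEK inhibitor wells 150.2 to 717 with a median of 440.3. The groups did not overlap, and the lowest pair of wells were those of cobimetinib (155.3 and 150.2 CPM). The log2 fold change of FDCSP was 4.06 (SE 0.15, adjusted p = 1.53e-33), or 16.7-fold. RHOB, a small GTPase, rose by 3.26, the surface glycoprotein CD24 by 3.17, FILIP1L, a relative of the filamin-binding FILIP, by 3.03 and the carboxypeptidase CPA4 by 2.90. The collagen chain COL1A2 rose by 2.77, the TNF receptor TNFRSF9 by 2.76, the actin-binding calponin CNN1 by 2.71, the bHLH factor ATOH8 by 2.53 and the calcineurin inhibitor RCAN1 by 2.52. COL1A2 and FILIP1L were also higher in untreated than in DMSO wells, by 1.10 (SE 0.17, adjusted p = 3.11e-05) and 1.20 (SE 0.31, adjusted p = 0.0161). Against untreated wells COL1A2 was at 1.67, FILIP1L at 1.83 and CNN1 at 1.80, all called.

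Among the largest falls, G0S2, an inhibitor of triglyceride lipase, ranged from 16.6 to 58.1 CPM with a median of 38.9 under MEK inhibitors and from 256 to 739 with a median of 542 in DMSO. The groups did not overlap, and the log2 fold change was -3.69 (SE 0.11, adjusted p = 1.45e-36). SERPIND1, the thrombin inhibitor heparin cofactor II, held 9.52 to 38.1 CPM with a median of 26.8 against 178.5 to 473 with a median of 294 and fell by 3.63 (SE 0.13), also without overlap. The organic anion transporter SLCO4A1 fell by 3.76 (SE 0.40) and ANGPTL4, an inhibitor of lipoprotein lipase, by 3.62 (SE 0.31). ANGPTL4 was also lower in untreated than in DMSO wells, at -0.77 (SE 0.23, edgeR adjusted p = 0.042). SERPIND1 was instead higher in untreated wells, by 0.48 (SE 0.10, edgeR adjusted p = 0.0021). The monocarboxylate transporter SLC16A6 fell by 2.49 (SE 0.45), with pimasertib at -6.42 and TAK-733 at -0.80. The remaining ones were DUSP6, SH2B3, DUSP4 and HMGA1, described above, and RECQL. RECQL, a DNA helicase, was called (-2.63, adjusted p = 0.00875) with DMSO wells that differed by well number. DMSO well 41 held 43.3, 154.8, 69.4 and 62.5 CPM on the 4 plates, and DMSO well 40 and the untreated wells held at most 8.5. Against untreated wells RECQL was at 1.39 and was not called (adjusted p = 0.39).

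**Figure D2:**
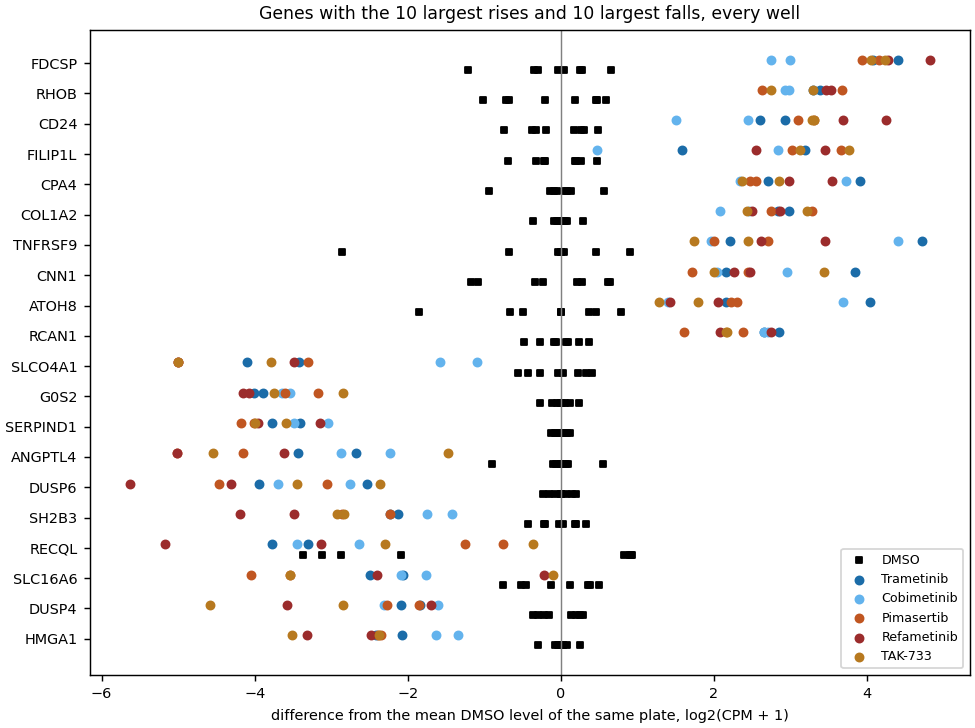
Each well's difference from the mean DMSO level of its plate, as log2(CPM + 1), for the genes with the 10 largest rises and the 10 largest falls, with coloured points for MEK inhibitor wells and black squares for DMSO wells. FDCSP lies between 2.74 and 4.82 above DMSO in all 10 wells, and RECQL is the gene whose DMSO wells split into separate clusters.

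Of 22 mesenchymal and matrix genes, 11 rose, 2 fell and 9 were not called (median 0.56). COL1A1, the other chain of type I collagen (GRCh37 chr17:48261462-48278993, minus strand), held 2224 to 17105 CPM with a median of 6489 under MEK inhibitors and 811 to 3308 with a median of 1782 in DMSO. Cobimetinib and trametinib on PS1 B, at 2224 and 2959 CPM, overlapped the DMSO range of other plates, but all 10 wells exceeded their own plate's DMSO mean. COL1A1 rose by 1.97 on the log2 scale (SE 0.07, adjusted p = 4.66e-35). It was at 2.38 for pimasertib, 2.22 for refametinib, 1.92 for TAK-733, 1.91 for trametinib and 1.44 for cobimetinib. The myosin light chain MYL9 (1.37), the matrix proteins SPARC (0.96), TGFBI (0.84), THBS1 (1.28), COL5A1 (0.89) and FN1 (0.54), the collagen cross-linker LOX (0.70), tropomyosin TPM1 (0.71) and the transcription factor SNAI2 (0.72) rose as well. SPARC was also higher in untreated than in DMSO wells, by 0.30 (SE 0.09, edgeR adjusted p = 0.045). The basement membrane collagen COL4A2 (-1.36) and the hyaluronan receptor CD44 (-0.43) fell, and VIM was at 0.03.

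Secreted proteases, inhibitors and cytokines split, with 6 of 23 rising and 10 falling (median -0.37). TIMP3, an inhibitor of metalloproteases, held 567 to 2169 CPM with a median of 912 under MEK inhibitors and 117.6 to 296 with a median of 206 in DMSO. The groups did not overlap, and TIMP3 rose by 2.44 (SE 0.10, adjusted p = 2.06e-30). TIMP3 was also higher in untreated than in DMSO wells, by 0.62 (SE 0.10, adjusted p = 2.67e-05). The gelatinase MMP2 (0.69), the protease inhibitor SERPINE2 (0.78) and the chemokines CCL2 (1.19), CXCL1 (1.11) and CXCL3 (0.51) rose with it. IL1B, an inflammatory cytokine, was at 877 and 1456 CPM under trametinib and 1011 and 1530.4 under cobimetinib, where DMSO wells held 2563 to 3934 CPM. On PS4 it was at 174.8 to 318 CPM in the 6 wells of the other 3 compounds, and at 583 to 1435 in DMSO. IL1B was thus below its DMSO wells on every plate, although PS1 wells under treatment overlapped PS4 wells under DMSO, and it fell by 1.75 (SE 0.08, adjusted p = 8.64e-28). VEGFA, the endothelial growth factor, held 331 to 539 CPM with a median of 433 against 945 to 1195 with a median of 1042, with no overlap, and fell by 1.23 (SE 0.07). The EGF receptor ligands TGFA (-2.23) and EREG (-0.60), the plasminogen activator PLAU (-1.81), TIMP1 (-0.64), IL6 (-0.66), IL8 (-0.43) and ANGPTL4 fell.

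Genes of the cell cycle fell almost throughout. Of 27 genes of G1 and DNA replication, 21 fell (median log2 fold change -1.21), and of 34 genes of G2 and mitosis, 33 fell (median -1.16). RRM2, a subunit of ribonucleotide reductase, held 64.6 and 223 CPM under trametinib and 112.6 and 229.6 under cobimetinib, where DMSO wells held 168.4 and 276 on plate A and 393 and 372 on plate B. On PS4 the 6 wells of pimasertib, refametinib and TAK-733 held 11.2 to 47.2 CPM and the DMSO wells 154.7 to 338. Every well was below the DMSO wells of its own plate, and RRM2 fell by 2.33 (SE 0.14, adjusted p = 8.37e-22). RRM2 was also lower in untreated than in DMSO wells, at -0.57 on the log2 scale (SE 0.13, adjusted p = 0.00305). The helicase subunits MCM4 (-1.21, and -0.77 against untreated wells), MCM3 (-1.09) and MCM5 (-1.01), the transcription factor E2F1 (-1.30), the separase inhibitor PTTG1 (-0.92), topoisomerase TOP2A (-1.14) and the mitotic kinases CDK1 (-1.34) and AURKA (-1.22) fell as well. By compound, the members called lower were counted side by side. In G2 and mitosis they were 29 of 34 for refametinib, 20 for pimasertib, 19 for TAK-733, 12 for trametinib and 0 for cobimetinib, whose median was -0.19. In G1 and replication they were 21 of 27 for refametinib, 18 for pimasertib, 10 for TAK-733, 4 for trametinib and 1 for cobimetinib. The PTTG1 call was lost without the plate block (adjusted p = 0.060).

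The list counts that follow stand beside 9.73% rising and 11.7% falling over all tested genes. Of 12 CDK inhibitors and quiescence genes, TXNIP (0.82) and the antiproliferative TOB1 (1.86) rose and the insulin receptor substrate IRS2 fell (-1.02). CDKN1B was at 0.35 and CDKN1A at 0.05 without passing. The TOB1 call was lost without the pimasertib well of PS4 A (1.59, adjusted p = 0.084), and TOB1 was at 1.21 against untreated wells. Of 6 BCL2 family genes, the survival gene BCL2L1 fell (-0.94, SE 0.16, adjusted p = 2.70e-06), the death agonist BID rose (0.43, adjusted p = 0.016, and 0.73 against untreated wells), and BCL2L11 was at -0.66 (adjusted p = 0.40). The BID call was lost without the cobimetinib well of PS1 B (0.40) and without the pimasertib well of PS4 B (0.34). Of 19 interferon response and MHC class I genes, 7 rose (median 0.40), among them the antigen-presenting HLA-E by 0.40, B2M by 0.26 and HLA-B by 0.24, and IFI6 by 0.45 and IFITM3 by 0.40. The calls of B2M, HLA-E and HLA-B were lost without the plate block, and those of HLA-E (0.25) and HLA-B (0.17) against untreated wells too. The HLA-B call was also lost without any 1 of 4 wells (DMSO on PS4 A and PS4 B, refametinib on PS4 A, trametinib on PS1 B), at 0.19 to 0.22. Of 22 lysosome genes, 7 rose and 1 fell (median 0.25), among them the sphingolipid activator PSAP (0.58) and the protease CTSK (0.81). Against untreated wells PSAP was at 0.92 and called, and CTSK at 0.41 and not called (adjusted p = 0.13).

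Of 21 glycolysis genes, 4 rose and 2 fell (median 0.09), with GAPDH at 0.67 and ALDOC at 0.59. Over all tested genes 9.73% rose and 11.7% fell. Against untreated wells GAPDH was at 0.23 and not called (adjusted p = 0.19). Of 15 cholesterol synthesis genes, 3 fell, among them the farnesyl diphosphate synthase FDPS (-1.86), and the list median was 0.08. Of 18 genes of ATF4 and unfolded protein stress, 5 fell (median -0.13), led by the serine synthesis gene PHGDH (-0.96). PHGDH was also lower in untreated than in DMSO wells (-0.46, SE 0.11, adjusted p = 0.0059), was at -0.50 against untreated wells, still called, and lost its call without the plate block (adjusted p = 0.22). Of the same list, the chaperone DNAJB1 (-0.37) and the serine synthesis gene PSAT1 (-0.57) lost their calls in both of these settings, at -0.18 and -0.19 against untreated wells. The 14 tested p53 target genes ranged from -1.25 (PLK3) to 0.40 (SESN1) for the average of the 5, with a median of -0.01. Of them, 0 passed in edgeR, 0 in DESeq2 and 0 at an unadjusted p under 0.05. Over all 9154 tested genes, 1966 passed in edgeR and 2958 had an unadjusted p under 0.05. By compound, the ribonucleotide reductase subunit RRM2B was called lower for pimasertib (-3.45, adjusted p = 0.0188) and PHLDA3 higher for refametinib (1.03, adjusted p = 0.0402). Of 5 neural and glial markers the tubulin TUBB3 rose (0.80), and of 4 epithelial and prostate markers 1 rose, KRT7 (0.84), and 1 fell. KRT7 was at -0.12 against untreated wells, and its call was lost without the cobimetinib well of PS1 A (0.78) and without the pimasertib well of PS4 B (0.71).

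**Figure D3:**
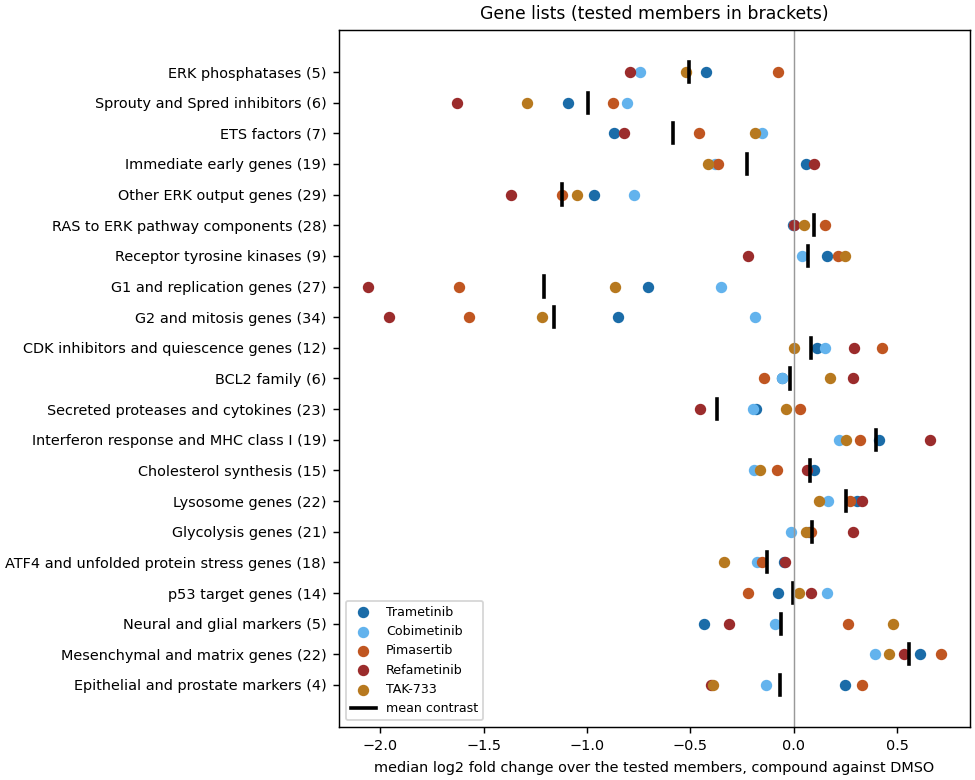
Median log2 fold change against DMSO over the tested members of each gene list (number in brackets), with coloured points for each compound and a black bar for the average over the 5. The cell-cycle lists spread from near 0 for cobimetinib to about -2 for refametinib (medians -0.188 and -1.96 in G2 and mitosis), while the matrix list is above 0 for all 5.

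Across the compounds, 75 of the 9154 tested genes rose and 51 fell in all 5. These common falls held DUSP6, DUSP4, PHLDA1, SH2B3, HMGA1, TFPI2, PLAUR, TGFA, IL1B, VEGFA, ANGPTL4, G0S2, SERPIND1, RRM2 and the integrin ITGA2 (-1.61). The common rises held COL1A1, COL1A2, TIMP3, SPARC, MYL9, MMP2, CCL2, TXNIP, MRAS, RRAS, FDCSP, RHOB and CD24. A further 30 genes were called higher under 1 compound and lower under another. All comparisons share the DMSO wells of their plates, so a gene called in several compounds is not counted as independent evidence for each.

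The same wells were also set against the other compounds. With the 2 wells of each compound summed and the plate pair as a term, 1440 of 10827 genes differed between the 5 MEK inhibitors and the other compounds (13.3%), 753 of them higher (6.95%) and 687 lower (6.35%). Of 9145 genes tested in both comparisons, 1026 were called in both, which is 52.2% of the DMSO calls and 74% of the calls against other compounds. The comparisons share the MEK inhibitor wells. Against other compounds DUSP6 was at -3.34 (SE 0.29, adjusted p = 3.98e-20), SPRY4 at -1.79 (SE 0.36, adjusted p = 6.11e-05) and ETV5 at -1.53 (SE 0.23, adjusted p = 2.04e-08). The largest rises were FDCSP (3.67), WISP1 (3.38), ANGPT1 (2.93), CD24 (2.83) and ATOH8 (2.82). WISP1 is a matricellular protein of the CCN family and ANGPT1 a ligand of the endothelial TIE receptors. The largest falls were G0S2 (-3.49), SERPIND1 (-3.45), DUSP6, ANGPTL4 (-2.89) and SH2B3 (-2.47). The cell-cycle lists held 17 lower genes of 29 in G1 and replication and 22 of 34 in G2 and mitosis, and the matrix list 9 higher of 23. RECQL was at 0.58 (adjusted p = 0.40). Without refametinib 827 genes were called, and without TAK-733 956.

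Ranked within the 92 compounds of their plate pair by the log2 difference from the plate median, the MEK inhibitors took the ends of several lists. For DUSP6, refametinib (-4.70), pimasertib (-3.50) and TAK-733 (-2.64) were the lowest 3 on PS4, and the next compound, plinabulin, was at -1.16. On PS1, trametinib (-3.11) and cobimetinib (-3.10) ranked 2 and 3 below fludarabine (-5.32), whose wells held only 76948 and 95412 counts. For COL1A1, trametinib (2.10) and cobimetinib (1.63) were the highest of PS1, and pimasertib (2.79), refametinib (2.46) and TAK-733 (2.27) the highest of PS4. The next compounds were mitoxantrone (0.77) on PS1 and savolitinib (1.15) on PS4. G0S2 on PS1 was lower under fludarabine (-4.40) and romidepsin (-4.25) than under trametinib (-3.54) and cobimetinib (-3.17). Romidepsin lay between trametinib and cobimetinib for SERPIND1 (-3.14) and TIMP3 (2.05). CD24 on PS1 was higher under romidepsin (3.65) and belinostat (3.18) than under trametinib (2.85). On PS4 the MEK inhibitors were the lowest 3 for G0S2 and SERPIND1 and the highest 3 for TIMP3. There celastrol ranked 1 for CD24, ahead of the MEK inhibitors at 2 to 4. For ETV5, trametinib (-1.31) and cobimetinib (-1.07) were the lowest of PS1, and refametinib (-3.56) and pimasertib (-2.13) of PS4, with TAK-733 (-1.003) at rank 5. SPRY4 placed refametinib (-2.19) at rank 1, TAK-733 (-2.12) at 3 and pimasertib (-0.15) at 43 of PS4. Within PS1 it placed trametinib (-1.57) at rank 4 and cobimetinib (-1.30) at 5. RRM2 placed refametinib, pimasertib and TAK-733 at ranks 2, 3 and 5 of PS4, but trametinib at 15 and cobimetinib at 23 of PS1. Tirapazamine (-3.33) was the lowest of PS4, with OTX015 (-2.17) at rank 4, and palbociclib (-2.59) the lowest of PS1.

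**Figure D4:**
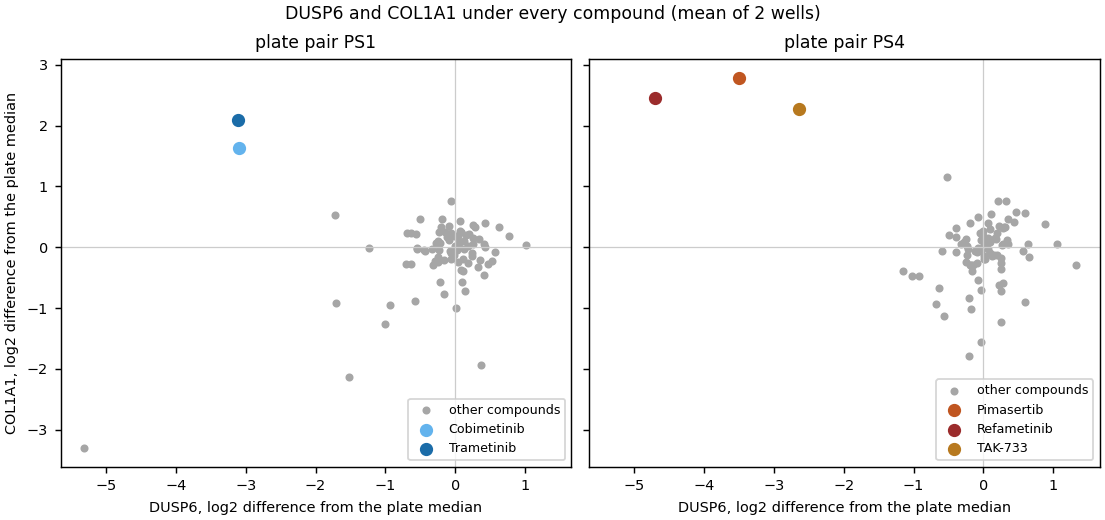
DUSP6 (horizontal) and COL1A1 (vertical) for every compound of each plate pair, as the mean log2 difference of its 2 wells from the plate median. The 5 MEK inhibitors lie apart at the upper left, with DUSP6 at or below -2.64 and COL1A1 at or above 1.63, and fludarabine is the grey point at the lower left of PS1.

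Inhibitors of kinases upstream of MEK were on the same plates, at other doses, and their values are set side by side without a test. Among RAF inhibitors, regorafenib (5.2 µM) was at -1.72 for DUSP6 and sorafenib (4.9 µM) at -1.24, while dabrafenib (1.6 µM) was at 0.02, RAF265 (4.944 µM) at -0.23 and vemurafenib (6.5 µM) at 1.02. Among inhibitors of the EGFR family, DUSP6 was at -0.93 for vandetanib (7.2 µM), -0.57 for osimertinib (1.6 µM), -0.44 for gefitinib (0.571 µM), -0.22 for lapatinib (10 µM), -0.12 for erlotinib (3.4 µM), -0.01 for afatinib (0.187 µM) and 0.65 for varlitinib (5.775 µM). COL1A1 was at 0.53 for regorafenib, 0.04 for vemurafenib, -0.01 for sorafenib, -0.13 for RAF265 and -1.004 for dabrafenib, below the 1.63 of cobimetinib. For the inhibitors of the EGFR family it lay between -0.95 (vandetanib) and 0.19 (afatinib). Leaving out the RAF and EGFR family inhibitors gave 1410 calls against the other compounds.

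Whole profiles were compared between plate pairs, which share no control wells, over 5728 genes with a mean of at least 20 CPM. The measure was Spearman's rank correlation of the log2 differences from the plate median, as a description across genes, which are not independent replicates. For each of the 5, the closest compounds of the other plate pair were its MEK inhibitors. Trametinib was closest to refametinib (correlation 0.49), TAK-733 (0.31) and pimasertib (0.28), and its next compound was voreloxin (0.24). Cobimetinib was closest to refametinib (0.38), pimasertib (0.36) and TAK-733 (0.34), ahead of talampanel (0.20). Refametinib was next to epirubicin (0.29), TAK-733 to palbociclib (0.23) and pimasertib to idarubicin (0.22), each after trametinib and cobimetinib. The median correlation over the 92 compounds compared lay between -0.0149 and 0.0137.

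**Figure D5:**
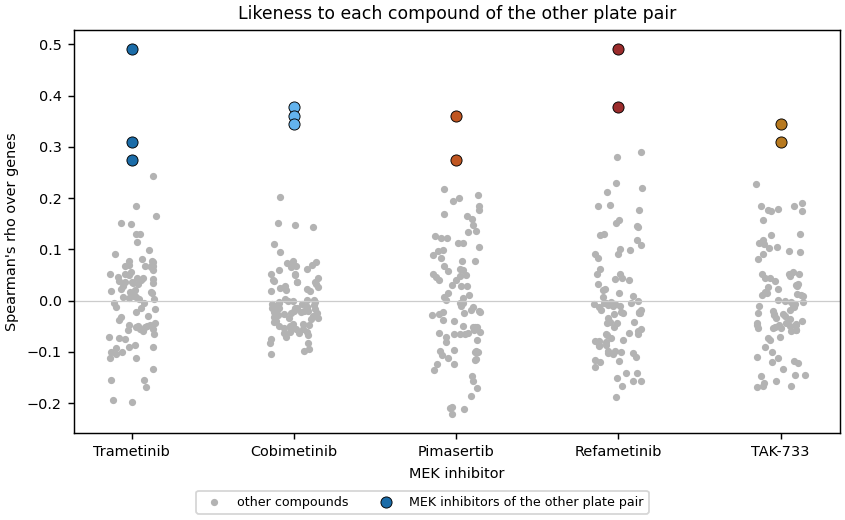
Spearman's rank correlation over 5728 genes between each MEK inhibitor and every compound of the other plate pair, with coloured points for MEK inhibitors and grey points for other compounds. In every column the coloured points, from 0.28 to 0.49, lie above all grey points of that column, of which the highest is 0.29 for refametinib.

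Compounds at the same well number of different plate pairs had a median rank correlation of 0.23 over 92 pairs, from -0.0124 to 0.58, against -0.0062 over the 8366 pairs at other well numbers, from -0.37 to 0.55. Plate position and well barcode, which go with the well number, cannot be told apart, and the part of the stock plate was not tested. The 6 pairs of MEK inhibitors, all at unlike well numbers, lay between 0.28 and 0.49, below the highest of the pairs at other well numbers. The compounds that shared a well number with a MEK inhibitor were talampanel with cobimetinib (correlation 0.20), ixazomib with pimasertib (0.20), vinorelbine with TAK-733 (0.19), ponatinib with refametinib (0.15) and picoplatin with trametinib (0.13). With the well number as a further term, in limma-voom, 1120 of 10827 genes were called (10.3%), 576 higher (5.32%) and 544 lower (5.02%). In this fit each MEK inhibitor is set against the compound at its own well number, named above. The remaining compounds give only the difference between plate pairs, so this is not a comparison with all other compounds. Of the 1560 genes that limma-voom called without this term, 1553 kept their direction and 887 (56.9%) were called in the same direction. The DMSO wells were all at well numbers 40 and 41, so treatment and well number cannot be told apart against DMSO. Of 1964 genes called against DMSO and tested with the well number as a term, 1871 kept their direction and 828 were called in the same direction. DUSP6 was then at -3.20 (adjusted p = 8.25e-10), SPRY4 at -2.20 (adjusted p = 0.000173), ETV5 at -1.56 (adjusted p = 1.69e-05), FDCSP at 3.82 (adjusted p = 1.00e-17), COL1A1 at 2.11 (adjusted p = 2.10e-11), TIMP3 at 2.78 (adjusted p = 1.73e-14) and RRM2 at -1.49 (adjusted p = 0.00264). VEGFA (-0.61, adjusted p = 0.064), CCL2 (0.98, adjusted p = 0.060), TXNIP (0.61, adjusted p = 0.11) and SLC16A6 (-1.40, adjusted p = 0.096) did not pass. In this fit 15 of 29 G1 and replication genes, 19 of 34 mitotic genes and 17 of 30 other ERK output genes were lower, and 7 of 23 matrix genes were higher. Of 20 immediate early genes 3 were higher and 5 lower, with a median of 0.07, and of 24 secreted proteases and cytokines 2 were higher and 5 lower (median -0.30).

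Genes called for a compound but not for the average of the 5 were set beside the compound at the same well number. By the fixed rule they made 20 pairs of a gene and a compound, and in 15 the compound at the same well number of the other plate pair was on the same side of 0. The share on the same side for compounds at other well numbers is not given, so these 15 have no background. Some of the 15 partners were close to 0, such as ALDH6A1 at 1.07 for trametinib and 0.07 for picoplatin. FBXL5, a subunit of a ubiquitin ligase, was at 2.43 above the plate median for TAK-733 and at 2.51 for vinorelbine. CCDC58 was at 1.78 for cobimetinib and 1.64 for talampanel, and VEZT, a protein of adherens junctions, at 2.11 for TAK-733 and 1.35 for vinorelbine. SPTY2D1 was at -0.69 for cobimetinib and -1.32 for talampanel. These 4 were the pairs whose partner passed 1 on the log2 scale on that side. Smaller values were those of SLC33A1 (1.47 and 0.70) and MPP5 (-0.86 and -0.68) for cobimetinib and talampanel, and of C1orf109 (1.83 and 0.79) and LYRM1 (-1.62 and -0.52) for pimasertib and ixazomib. LMO1, a LIM domain protein, was at 2.96 for refametinib and 0.37 for ponatinib, GMNN, the inhibitor of replication licensing, at -2.45 and -0.11, and the centrosomal CEP290 at -2.09 for trametinib and -0.01 for picoplatin. In 5 pairs the partner was on the other side of 0, with RYK, a receptor of the Wnt pathway, at -1.56 for pimasertib and 0.83 for ixazomib, MED18 at 1.98 and -0.21, ARHGEF25 at 1.77 for refametinib and -0.17 for ponatinib, and EGLN3 at 1.56 for trametinib and -0.38 for picoplatin. The fifth was CYTH2, at -1.37 for TAK-733 and 0.00192 for vinorelbine. STK17B, a kinase of the death-associated family, was called lower for both refametinib (-2.50 against DMSO) and trametinib (-2.82), and was at 0.73 for pimasertib. Its partners were at -0.35 (ponatinib) and -0.56 (picoplatin) from the plate median.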

How the data were processed

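PLATE-Seq libraries of U87 cells from 4 plates of 96 wells were analysed: 10 MEK inhibitor, 8 DMSO, 8 untreated and 358 other compound wells. The deposited values are counts of reads per gene and well. As the authors describe, reads were assigned by a well barcode, aligned with BWA to the hg19 transcriptome, and uniquely mapped reads on the gene's strand were counted. Molecular identifiers are not described, so counts are reads, which can include amplification copies. Each library pooled the lysate of a pair of culture wells. Total counts of 356330 to 1058545 per MEK inhibitor well limit what can be detected at low levels.

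Counts of 23710 genes were used, without the 92 spike-in rows. Wells were compared with edgeR 4.0.16 (quasi-likelihood, TMM scaling, filterByExpr) in R 4.3.3, with the plate as a block and the untreated wells in the fit. Adjusted p-values are Benjamini-Hochberg over all tested genes, with a threshold of 0.05. Against other compounds, the 2 wells of a compound were summed and the plate pair was a term. CPM are counts scaled to the same total in every well, with no correction for gene length. The block was the plate, since wells were pooled into 1 library by plate: deviations of DMSO wells correlated at 0.15 to 0.31 within a plate (4 pairs) and at -0.42 to 0.06 between plates (24 pairs). A and B wells of a compound correlated at 0.48 to 0.69 over 5727 genes. Both wells also share a well number, and its part in these correlations was not tested. Named genes were the 3 markers, the 10 largest rises and falls with at least 20 CPM and all 10 wells on 1 side, up to 4 members of each list by p, the 2 largest rises and falls called for each compound but not for the average, and the 5 largest rises and falls against other compounds. Other list members and common genes are named after their values were seen. The compounds, lists and tests were chosen with earlier results of these data known. Alternatives used DESeq2 1.42.0 and limma 3.58.1, and the fits were tested on simulated data. Sequences are from RefSeq, with 2 of the 3 marker symbols matched. Some genes that these rules would name are not reported here, though the counts and medians of the lists hold them.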

Additional observations from a re-analysis of the deposited data

Results flagged for a closer look

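Of the named genes, 7 had a lowest or highest MEK inhibitor well that stood apart from the other 9 by the Dixon criterion, which is 5.98% of the groups of values tested (the total counts included), where chance alone gives about 1 in 20. Values are log2 differences from the DMSO mean of the same plate. Of the 7, 5 were wells of pimasertib, and 4 of these were the well on plate PS4 B, which had the lowest total of the 10 (356330 counts). In that well DUSP5 was at 0.90 and BID at 1.16, each the highest, and CCNG1 at -1.69 and VEZT at -3.98, each the lowest. The pimasertib well on PS4 A was lowest for RRM2B, at -4.04. The refametinib well on PS4 B was lowest for IRS2, at -3.17, and the trametinib well on PS1 B was lowest for PLK3, at -2.54. The part of depth in these values was not tested.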

How the results depend on the processing

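RLE scaling, no filter on low counts, DESeq2, the fit without untreated wells, and untreated wells as control kept every count of calls within 1.5 times. Without the replicate block, that is with the plate pair in place of the plate, 955 genes were called for the average, 29 for cobimetinib, 350 for pimasertib, 461 for refametinib, 234 for TAK-733 and 89 for trametinib, and the share of higher calls moved from 54.6% to 65.5% for cobimetinib and from 51.5% to 62.9% for trametinib. A limma-voom fit over all U87 wells called 559 for cobimetinib. Over fits that each left out 1 well, 1766 to 1867 genes were called for the average, 90 to 326 for cobimetinib, 543 to 1087 for pimasertib, 653 to 1408 for refametinib, 407 to 923 for TAK-733 and 213 to 635 for trametinib. The lowest numbers came where the compound kept 1 well, which was then assumed to vary like the other groups. Against other compounds, 827 genes were called without refametinib and 956 without TAK-733. Alternatives chosen after seeing the data gave 1560 with limma-voom and 1120 with the well number as a further term. With untreated wells as control, KRT7 (-0.12), MKNK2 (0.054) and RECQL (1.39) changed sign. Of 75 named genes, over all alternatives, 849 values kept direction and call, 48 lost the call and 3 changed sign. The cause was not tested.

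At 356330 to 1058545 counts a well, genes of a few CPM rest on few reads, so SPRY4 and ETV5 at 0 in a PS4 B well were not detectable at this depth. Each compound has 2 wells at 1 dose and 1 time.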

Other observations

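Among the genes called in all 5 compounds, several are outside the lists above, and those named here were chosen after their values were seen. The mitochondrial superoxide dismutase SOD2 rose from 50.2 CPM ± 25 (SD, n = 8 DMSO wells) to 267 ± 121.3 (SD, n = 10 MEK inhibitor wells), a log2 fold change of 2.50 (SE 0.14, edgeR adjusted p = 6.73e-24). The complement protease C1R rose by 2.01, the transcription factor CEBPD by 2.52 and the NF-κB regulator BCL3 by 1.03, each above the plate's DMSO mean in 10 of 10 wells. The inhibitors of bHLH factors ID3 (1.80) and ID2 (1.25) rose, while ID1 was at -0.21 and did not pass. The metallothioneins MT1M (1.51) and MT1F (1.08) rose under each compound, whereas MT2A was at 0.51 without passing (adjusted p = 0.062). The ubiquitin ligase subunit FBXO32 rose by 1.78 and caveolin CAV1 by 1.18.

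The common falls included secreted and surface proteins. The cytokine CSF3 fell by 1.93 (SE 0.08, adjusted p = 7.68e-29), the semaphorin SEMA7A by 2.23 (SE 0.14) and the hormone STC1 by 1.15. The ecto-nucleotidase NT5E (-1.63), the EGFR inhibitor ERRFI1 (-1.77), NAMPT, an enzyme of NAD salvage (-1.44), and the hypoxia factor EPAS1 (-0.82) fell too, all with 10 of 10 wells below the DMSO mean. With the well number as a term, that is against the compounds at the same well numbers, SOD2 was at 2.19 and C1R at 1.87. In that fit CSF3 was at -1.96 and SEMA7A at -2.27, and all of these were called. STC1 at -0.52 was not called (limma-voom adjusted p = 0.076).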
